A study of Caenorhabditis elegans with 2 samples.

Results

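The regions described here are the peaks of tagged SNU-23 on chromosome V of the nematode Caenorhabditis elegans that lie at the starts of genes. They are the peaks of the authors' final list whose summit was within 500 bp of the annotated 5' end of at least 1 gene of any class. Of 6675 final peaks, 1019 had their summit on chromosome V, and 662 of these met the rule. The rule used positions alone, so the signal of the peaks, their place along the chromosome, the kind of gene beside them and their sequence were free to vary. The final list holds peaks called from both replicates together that passed a threshold on agreement between the replicates. A peak described by itself is named for the gene with the nearest 5' end. Under gene classes and lists, a gene has the value of the strongest peak within 500 bp of its 5' end, which may be nearer to another gene.

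Chromatin immunoprecipitation sequencing (ChIP-seq) was carried out on 2 biological replicates of 1 group, and peak lists were deposited. The animals were whole hermaphrodite larvae of the first stage (L1), taken 6 hours after synchronisation, which was done by bleaching followed by starvation. The strain, OP528, carried the fosmid transgene wgIs528, in which snu-23 is joined to TY1, EGFP and 3xFLAG tags, together with unc-119(+) as a rescuing marker in the unc-119(tm4063) background, and the chromatin was sonicated and precipitated with an antibody against GFP. There was no second group, so no condition was compared. Any cell type of the larva that holds the tagged protein can contribute to the lists. Fewer cells with binding and less binding per cell cannot be told apart. The labels do not say whether the replicates came from separate cultures. No read numbers were given, so depth is unknown, and intervals below are exact 95% binomial intervals that cover counting error only.

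SNU-23 is named for its yeast counterpart, which belongs to the tri-snRNP, the spliceosome particle that brings the catalytic small nuclear RNAs to the intron. Splicing largely happens while the RNA is still being made, so spliceosome proteins can be recovered with chromatin. Worm autosomes have a gene-rich, conserved centre and arms with more recombination, more repeats and more young gene families, and the arms of chromosome V are known for large clusters of chemoreceptor, nuclear hormone receptor and F-box genes. Many worm transcripts are trans-spliced, which removes the first stretch of the RNA, so an annotated 5' end can lie downstream of where transcription starts.

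The sequences below span 50 bp to either side of the summits of 10 of these peaks. They show the strongest peak, an RNA gene cluster, leading peaks of the centre and of both arms, and peaks at a heat shock pair, a nuclear hormone receptor, a histone pair and a tRNA gene. Capitals mark every match, on either strand, to the GA repeat word GAGAGA, to the word GCGTCTC, to the word GAGCGCG, to the E-box CACGTG, to the inner tRNA promoter word GGTTCGA and to the heat shock unit TTCNNGAA. Each is written 5' to 3' on the strand of the named gene, from assembly WBcel235 (ce11).
tos-1, minus strand of chrV:9344264-9344364: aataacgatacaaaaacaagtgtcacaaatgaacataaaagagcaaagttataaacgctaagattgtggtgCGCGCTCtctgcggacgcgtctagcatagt
W06H8.14, minus strand of chrV:6227705-6227805: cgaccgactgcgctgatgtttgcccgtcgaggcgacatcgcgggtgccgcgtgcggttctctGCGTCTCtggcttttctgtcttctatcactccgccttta
sec-61.G, minus strand of chrV:10897317-10897417: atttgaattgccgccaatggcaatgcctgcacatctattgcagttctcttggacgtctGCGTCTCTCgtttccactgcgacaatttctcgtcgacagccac
sti-1, plus strand of chrV:773401-773501: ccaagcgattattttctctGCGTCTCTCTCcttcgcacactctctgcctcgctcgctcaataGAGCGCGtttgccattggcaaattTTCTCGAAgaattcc
pqn-51, plus strand of chrV:5049493-5049593: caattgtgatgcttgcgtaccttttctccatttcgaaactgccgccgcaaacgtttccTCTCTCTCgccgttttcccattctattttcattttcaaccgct
hsp-16.41, plus strand of chrV:1805056-1805156: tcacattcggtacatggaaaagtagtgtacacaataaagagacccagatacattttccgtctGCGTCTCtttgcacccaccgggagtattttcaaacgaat
nhr-256, plus strand of chrV:1743646-1743746: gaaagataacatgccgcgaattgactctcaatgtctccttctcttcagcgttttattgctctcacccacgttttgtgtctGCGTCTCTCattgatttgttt
efl-1, minus strand of chrV:16965798-16965898: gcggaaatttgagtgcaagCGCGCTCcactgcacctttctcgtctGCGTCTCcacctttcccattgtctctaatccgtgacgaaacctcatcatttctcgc
his-6, minus strand of chrV:8535041-8535141: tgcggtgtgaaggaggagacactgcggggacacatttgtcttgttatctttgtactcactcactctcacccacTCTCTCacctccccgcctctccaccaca
WBGene00014406, plus strand of chrV:12002076-12002176: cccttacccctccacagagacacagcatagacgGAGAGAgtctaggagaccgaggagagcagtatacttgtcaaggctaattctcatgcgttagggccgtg

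The regions were matched to the peaks of each replicate. The final list was thresholded on agreement between the replicates, so the match and the correlation below were favoured by that choice and are given as a description. Signals are those the authors gave to each peak relative to a control, and their scale differs between the pooled and the replicate lists. Of the 662 peaks, 654 had their summit in a peak of replicate 1, 658 in one of replicate 2, and 650 in both. For 583 (88.1%) the match was among the 6675 strongest peaks of each replicate. Over the 650 peaks the replicate signals had a Spearman correlation of 0.94 as a description, with a standard deviation of 0.36 for the log2 ratio between them. Replicate 2 had a median 1.12 times the signal of replicate 1. For 22 of the 662 the matching peak of a replicate also held the summit of another of the regions, so these share replicate values.

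**Figure D1:**
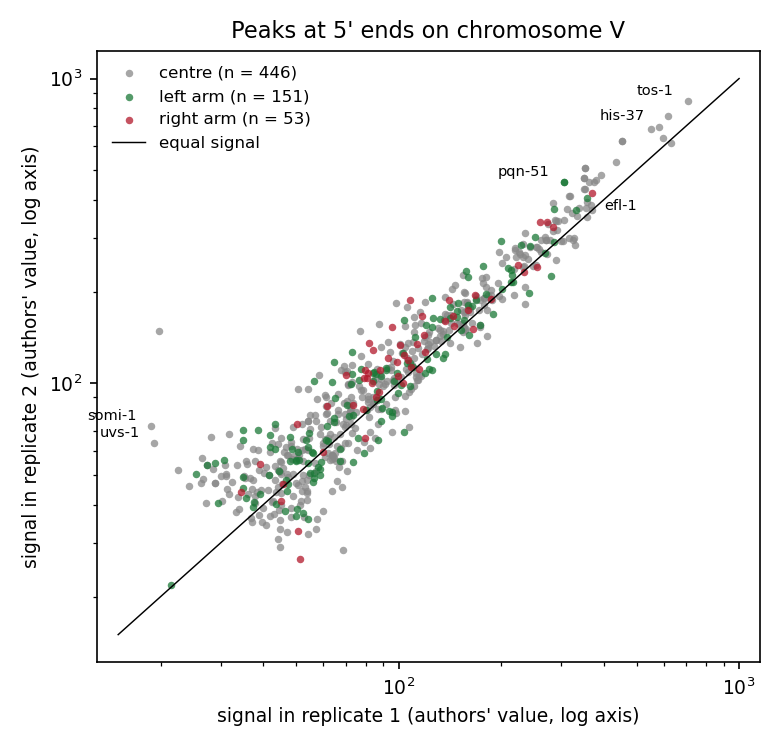
Signal of each peak at a 5' end of chromosome V in replicate 1 (x axis) and replicate 2 (y axis), both on log axes in the authors' units, coloured by region; the line marks equal signal. The peaks of the 3 regions lie along the same band (n = 446, 151 and 53 with a value in both replicates), with tos-1 at the top and somi-1 and uvs-1 far above the line.

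Of the 15 strongest regions, 14 lay in the centre, and coding and non-coding RNA genes were both among their nearest genes. The highest was 111 bp upstream of tos-1, a gene known as a target of splicing regulators, with a pooled signal of 1557 and replicate signals of 706 and 843. The next was 296 bp upstream of C47E8.4 (1359; 620 and 753 in the replicates), inside the span of the gene hsp-90. The peak before his-37, a core histone gene, reached 1274 (584 and 695). The peak of tos-1 was the highest of the 662 in both replicates, and the order below it differed: F46B6.15 came next in replicate 1 and C47E8.4 in replicate 2.

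Among the 15 strongest, 6 had an RNA gene as the nearest. The peak at F46B6.15, which also lies 345 bp upstream of the zinc finger gene ztf-7, had 1244 (633 and 614). The peak at W06H8.14 had 1241 (550 and 681) and was within 500 bp of 4 RNA genes, among them the small nucleolar RNA (snoRNA) gene W06H8.17. The others were F40F9.14 (1073), W06H8.16 (874), C10F3.15 (844, just inside the centre) and F22E12.9 (841), none of them with a coding 5' end within 500 bp.

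The other coding genes among the 15 were of several kinds. The peak at sec-61.G, a subunit of the channel that takes proteins into the endoplasmic reticulum, had 1235 (598 and 639). The peak between eef-1G, a translation elongation factor, and ctf-4, named for a replication protein, had 963 (435 and 534). Lower down were cept-2, a phospholipid synthesis enzyme (834), fib-1, the nucleolar methylase fibrillarin, with mut-15 (826), and unc-23, a co-chaperone (820). The one outside the centre was efl-1, an E2F-family transcription factor gene of the right arm, at 794 (370 and 422).

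In the left arm the strongest peak was shared by pqn-51 and K11D12.14, at 761 (307 and 458). It was followed by sti-1, the co-chaperone that links the Hsp70 and Hsp90 systems, at 758 (357 and 407). The divergent pair F25B4.4 and hmgs-1, the latter a mevalonate pathway enzyme, had 700 (332 and 370). Next were the peak of nhr-47 and dnj-19 (658) and that of W02H5.19 and W02H5.16 (574). In the right arm efl-1 was followed by Y39B6A.43 at 623 (272 and 339), the pseudogene WBGene00045366 at 617 (284 and 327), F31D4.2 with fkb-6 at 598 (261 and 338) and F26F2.7 at 485 (256 and 240). Replicate 2 gave the higher value at each of these arm peaks except F26F2.7.

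Among the 650 peaks with a value in both replicates few differed strongly, and the examples here are weak ones chosen after their values were seen. Peaks without a match in a replicate are not covered. Those at gst-33 and nhr-65, with pooled signals of 160 and 150, had none in replicate 2. The peak in somi-1 had 18.7 in replicate 1 and 72.4 in replicate 2. That before uvs-1 had 19.2 and 63.7. Both had pooled signals below 100, at 94.3 and 74.4.

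The centre of the chromosome, from 6 to 16 Mb, held most of the peaks, and the right arm held the fewest for its length. The centre had 454 peaks, or 45.4 per Mb, the left arm 153, or 25.5 per Mb, and the right arm 55, or 11.2 per Mb. The whole chromosome had 31.6 per Mb, against 36.7 to 45.9 on the other 5 chromosomes. The densest 1 Mb bin, from 11 to 12 Mb, had 66 peaks and the emptiest, from 17 to 18 Mb, had 4. The longest stretch without one was 572804 bp, from chrV:16965848 (the peak of efl-1) to chrV:17538652, against a median spacing of 13838 bp. That stretch holds the 5' ends of the annotated 15 rRNA genes of the chromosome, at 17115903 to 17428879, which are near-identical repeats, so absence of peaks there is uncertain. Towards the right tip, from 20 Mb on, the count was 22 again and 14.7% of coding genes had a peak.

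**Figure D2:**
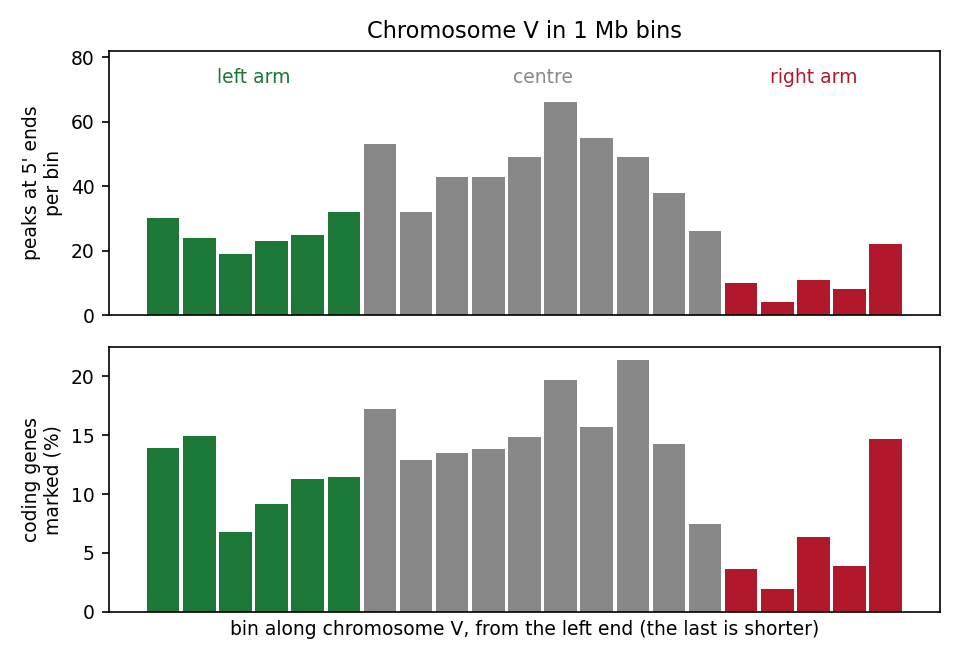
Peaks at 5' ends in 1 Mb bins along chromosome V (top) and the share of coding genes of each bin with a peak summit within 500 bp of the 5' end (bottom), coloured by region. The bins of the right arm hold 4 to 22 peaks and those of the centre 26 to 66; the share of coding genes runs from 1.90% to 21.4%.

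The share of a region's peaks that lay at 5' ends differed as well. It was 67.6% (63.9 to 71.1%) of 672 summits in the centre, 65.1% (58.6 to 71.2%) in the left arm and 49.1% (39.5 to 58.7%) of 112 in the right arm. The strongest 6675 peaks of replicate 1 alone gave 67.5%, 63.3% and 50.5%, and those of replicate 2 gave 67.7%, 63.8% and 47.4%, so the gap between the right arm and the centre was larger than the spread between replicates. Sequence within 500 bp of a 5' end made up 34.9% of the centre, 28.4% of the left arm and 30.6% of the right arm. The share of summits was thus 1.94, 2.29 and 1.60 times the share of bases. Over the whole chromosome 65.0% of summits were at 5' ends, 2.03 times the share of bases, while the other chromosomes had 55.4% to 63.8% and 1.45 to 2.52 times.

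Fewer genes of the arms than of the centre had a peak at the 5' end. A gene is called marked below when a final summit was within 500 bp of its 5' end; 1 peak can mark several. On chromosome V 908 of 7870 genes (11.5%) were marked, against 12.3% of genes of all chromosomes. That figure includes chromosome IV with its many piRNA genes (5.65%), and chromosomes I, II, III and X had 21.9%, 15.8%, 23.2% and 18.4%. In the centre it was 648 of 4238 (15.3%, 14.2 to 16.4%), in the left arm 184 of 1872 (9.83%, 8.52 to 11.3%) and in the right arm 76 of 1760 (4.32%, 3.42 to 5.38%). For both arms together the share was 7.16%, with 7.38% and 7.05% in replicates 1 and 2 alone, against 15.2% and 15.5% in the centre, a gap far beyond the spread between replicates.

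Coding genes followed the same order. Of 4994 coding genes 588 (11.8%) were marked, against 16.8% over all chromosomes and 15% to 24.2% on each of the others. The share was 14.7% (13.4 to 16.1%) in the centre, 10.9% (9.34 to 12.7%) in the left arm and 5.69% (4.37 to 7.26%) in the right arm. Chemoreceptor, F-box and C-type lectin genes made up 26.3% of coding genes in the left arm, 15.1% in the centre and 29.95% in the right arm, and 11 of these 1063 were marked. Without them the shares were 17.1% (15.6 to 18.8%), 14.2% (12.1 to 16.6%) and 7.98% (6.13 to 10.2%) for the centre, the left arm and the right arm, the same order.

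The gap was already present among peak candidates, the longer list of 30000 calls from which the final peaks were taken. A candidate lay within 500 bp of the 5' end of 34.8% of genes in the centre, 20.1% in the left arm and 10.3% in the right arm. Among genes with such a candidate, the share also marked by a final peak was 44.0%, 48.9% and 42.0%, so the order of the regions did not carry over to that step. For coding genes with a candidate the shares were 48.1%, 54.9% and 51.7%. Of the 1901 candidates on the chromosome at 5' ends, 34.8% were final peaks, against 12.9% of the other 2775.

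The median signal was alike in the left arm and the centre and higher in the right arm. The median pooled signal was 172 in the left arm, 173 in the centre and 213 in the right arm, with quartiles of 108 and 281, 104 and 313, and 168 and 295. In the matched peaks of replicate 1 the medians were 84.3, 82.5 and 99.1, and in those of replicate 2 they were 93.1, 91.5 and 119. The upper end differed: 45 of the centre's peaks (9.91%), 6 of the left arm's (3.92%) and 4 of the right arm's (7.27%) were among the 500 strongest of all 6675. Among the stronger 3337 final peaks the order of the medians turned, with 252 in both arms together and 307 in the centre, against 185 and 173 in the full list. Peaks of the chromosome away from 5' ends had a lower median, 122.

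The classes of genes beside the peaks differed between regions, and so did the annotated genes. Coding genes were 2568 of 4238 genes in the centre, 1371 of 1872 in the left arm and 1055 of 1760 in the right arm. Genes annotated as ncRNA were 1098 of 4238 in the centre and 426 of 3632 in both arms. How much of the difference between peaks this makeup accounts for was not tested. A protein-coding gene was nearest for 443 of 662 peaks (66.9%), and the share was 59.3% in the centre, 85.0% in the left arm and 80.0% in the right arm. Genes annotated as ncRNA, mostly short transcripts of a median 145 bp among those nearest to a peak, were nearest for 132 peaks of the centre and 19 of both arms. Peaks with no coding 5' end within 500 bp made up 32.2% of the centre's, 11.1% of the left arm's and 16.4% of the right arm's.

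For ncRNA genes the share was higher in the centre than in the arms. In the centre 209 of 1098 ncRNA genes (19.0%, 16.8 to 21.5%) were marked and in the arms 32 of 426 (7.51%, 5.19 to 10.4%), against 18.1% over all chromosomes. The leading ones, F46B6.15, W06H8.14 and W06H8.12, belonged to the peaks described above. Their functions are not given in the annotation.

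The tRNA genes, which RNA polymerase III transcribes, were marked in 23 of 45 cases in the centre (51.1%, 35.8 to 66.3%) and 5 of 33 in the arms (15.2%, 5.11 to 31.9%). Over all chromosomes it was 54.4%. The strongest of those on V was WBGene00014406 at 532 (259 and 276), followed by the facing pair WBGene00014531 and WBGene00014532, with a shared peak of 491 between them (232 and 260). At tRNA genes the summit was close to the gene, at a median distance of -9.5 bp (negative is upstream).

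The snoRNA genes guide chemical modification of ribosomal and small nuclear RNAs, and 20 of 40 in the centre (33.8 to 66.2%) and 2 of 15 in the arms (13.3%, 1.66 to 40.5%) were marked, against 36.1% over all chromosomes. Behind W06H8.17 the strongest were F09G2.14 at 729 (317 and 411) and ZK994.7 at 717 (369 and 371). Their summits were upstream in 20 of 21 peaks, at a median distance of -58 bp. Peaks with a snoRNA gene as the nearest had a median signal of 328, against 181 for coding genes and 139 for ncRNA genes.

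The small nuclear RNA (snRNA) genes encode the RNAs of the spliceosome and of trans-splicing. On chromosome V 4 of 40 (10.0%) were marked, all in the centre, against 25.6% over all chromosomes. The leading peak, 58 bp upstream of T11F9.15, had 765 (357 and 395) and also lay 337 bp upstream of snr-4, an Sm protein gene. It was followed by F08H9.11 at 217 (88.6 and 132) and smy-4 at 191 (87.6 and 99.2). Of the 40, 12 are copies of the spliced leader gene sls-1 in the right arm, near-identical to each other, so their absence from the marked genes is uncertain.

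Pseudogenes and piRNA genes had few marks. Of 867 pseudogenes 11 (1.27%) were marked, against 1.88% over all chromosomes, and in the right arm it was 1 of 396. That one, WBGene00045366, is the third strongest peak of the arm, while WBGene00015441 in the left arm had 451. Of 202 piRNA genes 5 (2.48%) were marked, against 2.51%, led by 21ur-11069 at 369 (178 and 191).

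**Figure D3:**
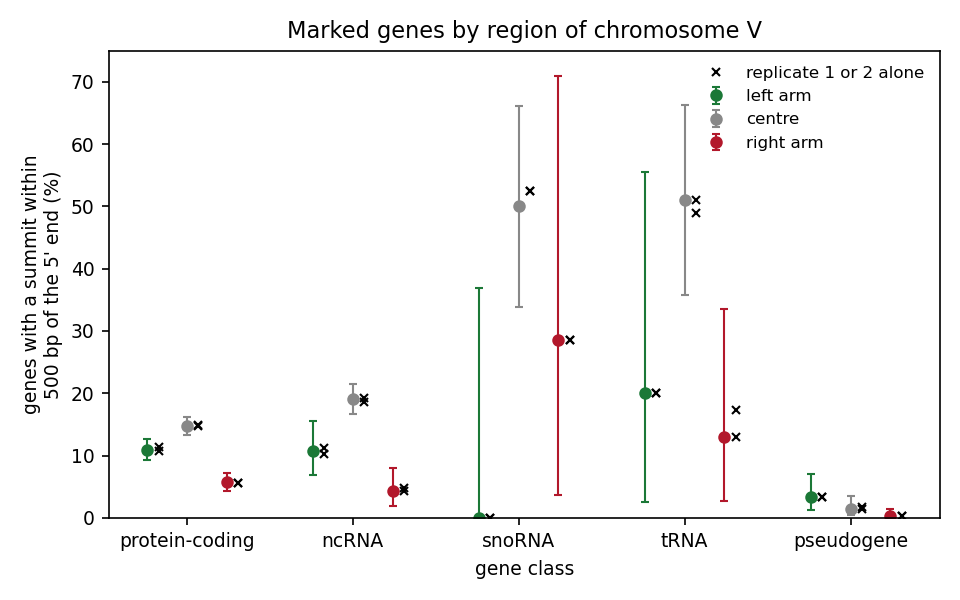
Share of the genes of each class in each region of chromosome V with a final peak summit within 500 bp of the 5' end, with exact 95% binomial intervals; crosses give the same share from the strongest 6675 peaks of each replicate alone. The centre lies above both arms for coding and ncRNA genes; the intervals of snoRNA and tRNA genes are wide because the arms hold few.

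Most summits lay upstream of the nearest coding 5' end and downstream of the nearest ncRNA 5' end. Of 490 peaks with a coding 5' end within 500 bp, 426 (86.9%, 83.6 to 89.8%) were upstream of the nearest one, at a median distance of -146 bp. The median was -145 bp in the left arm, -146.5 bp in the centre and -150.5 bp in the right arm. At the 194 peaks with an ncRNA 5' end in reach, 32.5% (25.9 to 39.6%) were upstream and the median summit was 57 bp downstream. Among peaks nearest to an ncRNA gene, 73 of 151 summits (48.3%) were inside the gene, against 58 of 443 (13.1%) for coding genes.

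**Figure D4:**
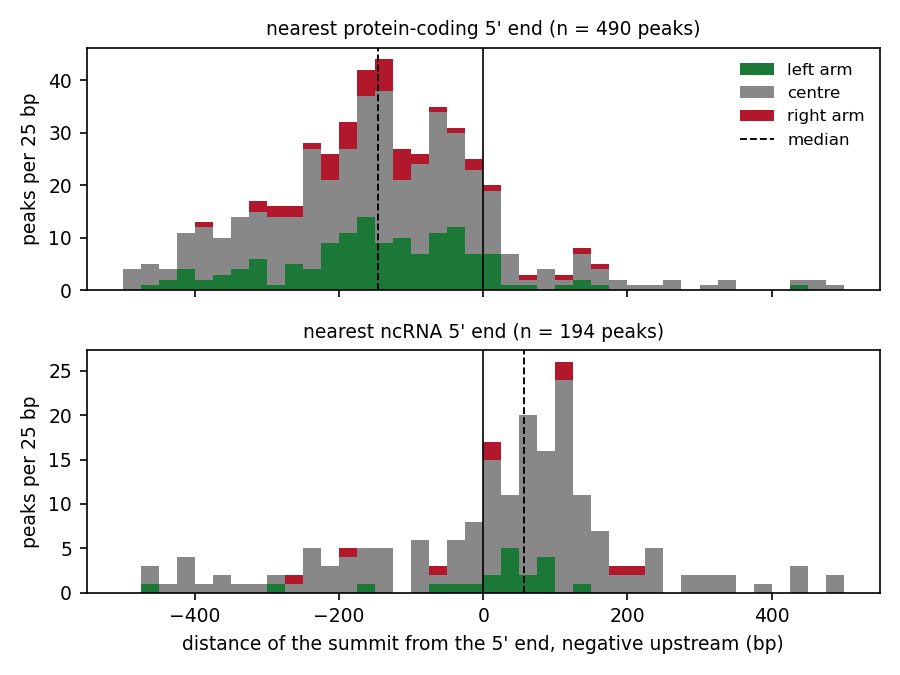
Distance of the summit from the nearest coding 5' end (top, n = 490 peaks) and from the nearest ncRNA 5' end (bottom, n = 194 peaks) within 500 bp, in 25 bp bins coloured by region; negative values are upstream and dashed lines mark the medians. Coding genes have the bulk of summits upstream, around a median of -146 bp, and ncRNA genes have it downstream, around 57 bp.

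Peaks between divergent coding genes were the strongest class by position. These 87 peaks had a median signal of 299. The 352 peaks upstream of coding genes on 1 strand had 182, the 51 that were only inside a coding gene had 125, and the 172 with no coding 5' end had 152. In the right arm the order was not seen: the medians were 214 between divergent genes (10 peaks) and 220 on 1 strand (32 peaks).

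Most housekeeping gene lists had a larger share of marked members than the coding genes of the chromosome as a whole, of which 11.8% were marked. The lists were made from gene symbols. For chaperones it was 9 of 15, against 28 of 51 on the other chromosomes. By region it was all 6 of the left arm, 2 of 8 in the centre and the 1 of the right arm. Behind sti-1 and dnj-19 these included hsp-6, the mitochondrial Hsp70, at 518 (229 and 285), and cct-7, a chaperonin subunit, at 501 (200 and 294). The small heat shock genes hsp-16.2 and hsp-16.41 shared the divergent peak of 315 (141 and 178) shown above, so the 6 of the left arm came from 5 peaks. In the centre dnj-22 had 594 (284 and 315) and hsp-90 itself 74.5 (22.5 and 51.8).

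Of the genes for splicing, 5 of 9 were marked: snr-4 (765), snu-66, whose yeast counterpart is a tri-snRNP protein, at 364 (173 and 188), syf-3 at 263 (136 and 125), lsm-5 (199) and sftb-2 (170). Elsewhere it was 41 of 65. For translation factors it was 5 of 6, led by eef-1G, eif-2Bdelta (308) and the release factor erfa-3 (261). For ribosomal proteins it was 5 of 8, led by rpl-28 at 569, rpl-38 at 539 and the divergent pair rpl-39 and rps-30 at 502, against 60 of 70 on the other chromosomes. For mitochondrial ribosomal proteins it was 4 of 10, with mrpl-49 sharing the peak of rpl-28.

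Smaller housekeeping lists held few genes here. Of proteasome genes 3 of 5 were marked (rpt-2 at 595, rpt-1 at 232, pas-6 at 151), of nuclear transport genes all 3 (ima-1, npp-22 and xpo-1, at 308, 177 and 130). Of cell cycle and replication genes it was 3 of 5 (efl-1, and the helicase subunits mcm-7 at 206 and mcm-3 at 155) and of oxidative phosphorylation genes 3 of 5 (atp-5 at 337, atp-4 at 173, cox-16 at 120). The general transcription list had 2 of 9 (taf-10 at 225, rpoa-12 at 180), the ubiquitin enzymes 2 of 11 (cul-3 at 289, ubc-19 at 185) and the aminoacyl-tRNA synthetases 1 of 4 (vars-1 at 278). Neither of the V-ATPase genes of the chromosome was marked, against 11 of 18 elsewhere, nor either of the small GTPase genes.

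Nuclear hormone receptor genes, a family much expanded in worms, had 35 of 167 members marked (21%, 15.1 to 27.9%), against 19 of 102 (18.6%) on the other chromosomes. The share was 20 of 77 in the left arm, 13 of 65 in the centre and 2 of 25 in the right arm. The strongest were nhr-68 at 686 (334 and 355), a regulator of propionate breakdown whose peak is nearer to H12C20.7, nhr-47, which shares the peak of dnj-19, and nhr-256 at 356 (169 and 188). The median signal over the marked receptor genes was 128, below the 181 of peaks nearest to coding genes. The first is a median over genes, each with its strongest peak in reach, and the second over peaks. Both nhr-94 and nhr-152 count in the first, with a shared peak. In the left arm 26.0% of the receptor genes were thus marked, against 10.9% of all its coding genes. Outside the chemoreceptor, F-box and C-type lectin lists 14.2% (12.1 to 16.6%) of the coding genes of that arm were marked.

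Chemoreceptor genes, by far the largest family of the chromosome, were nearly without marks. Of 890, 6 had a peak (0.674%, 0.248 to 1.46%), and elsewhere 2 of 419. The leading ones were srh-16 at 602 (329 and 284), srh-2 at 336 (164 and 179) and srh-269 at 288 (137 and 160). The peak of srh-2 is nearer to C05E4.16. The peak of srh-269 is also that of the tRNA gene WBGene00014499, whose 5' end is nearer. F-box genes had 3 of 87 marked, all in the left arm (fbxb-72 at 300, fbxa-64 at 141 and fbxa-65 at 92.7), and C-type lectins 2 of 86 (clec-57 at 217, from the peak of the snRNA gene F08H9.11, and clec-1 at 73.1).

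Of 92 detoxification enzyme genes 13 were marked (14.1%), and 19 of 96 on the other chromosomes. Of all coding genes of the chromosome 11.8% were marked, and 14.7% of those outside the chemoreceptor, F-box and C-type lectin lists. By region the marked detoxification genes were 10 of 49 in the left arm, 3 of 36 in the centre and none of 7 in the right arm. The marked genes were led by cyp-33C4 at 191 (84.3 and 109), gst-33 at 160 (79.1 in replicate 1, no match in replicate 2) and ugt-13 at 151 (73.2 and 78.9). Of 23 neuropeptide and insulin genes 5 were marked, against 2 of 117 on the other chromosomes. All 5 are of the nlp class: nlp-24 at 252 (111 and 148), nlp-29 at 158 (80.1 and 81.7), nlp-33 at 156 (69.3 and 86.1), and nlp-31 and nlp-28 at 106 and 93.4. The products of nlp-29, nlp-31 and nlp-33 are known as antimicrobial peptides of the skin.

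The next lists are read against the same 11.8% of coding genes, or 14.7% outside the chemoreceptor, F-box and C-type lectin lists. Of 31 cuticle collagen genes, 27 of them in the centre, 6 were marked, all in the centre, against 14 of 125 on the other chromosomes. They were led by col-10 at 272 (116 and 158), col-147 at 239 (87.7 and 157) and col-144 at 186 (85.4 and 104). Of the marked collagen genes, col-159 and col-160 shared a peak. Of 30 histone genes 7 were marked, against 15 of 51 elsewhere, from 4 peaks: his-37, the pair his-41 and his-35 at 273 (98.5 and 183), the pair his-4 and his-3 at 172 (85.9 and 90.2) and the pair his-5 and his-6 at 133 (57.1 and 75.4). Histone genes of one kind are nearly alike in sequence, so which copy a read came from is uncertain. Potassium channels had 3 of 17, against 2 of 38 elsewhere (kvs-3 at 171, twk-10 at 134, twk-32 at 73.5), and the peak of kvs-3 is nearer to the tRNA gene WBGene00023049. None of 14 homeobox and bHLH genes was marked (upper limit of the interval 23.2%), against 7 of 74 elsewhere, and none of 7 G protein genes (upper limit 41.0%).

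The summits were richer in G and C than the sequence around them. The median GC content within 50 bp of the summit was 45.5%, against 35.6% in windows 500 bp to either side, and it was higher than the flanks at 562 of 662 peaks (84.9%). In the right arm the median was 47.5%, in the centre 45.0% and in the left arm 44.6%. The mean in 51 bp at the summit was 51.7% in the right arm, 48.1% in the centre and 48.6% in the left arm.

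**Figure D5:**
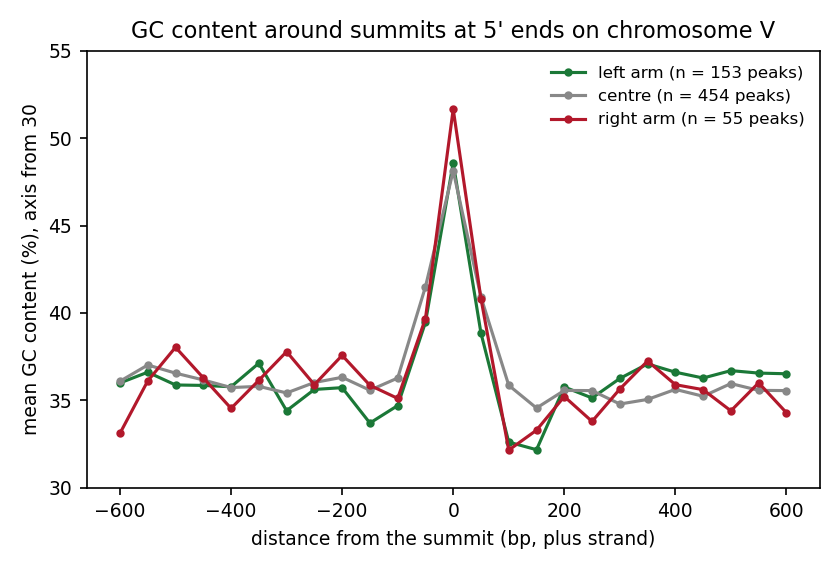
Mean GC content of 51 bp windows at distances up to 600 bp from the summit on the plus strand, for the peaks at 5' ends in the left arm (n = 153), the centre (n = 454) and the right arm (n = 55); the y axis starts at 30%. All 3 curves are highest at the summit, at 48.6%, 48.1% and 51.7%.

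Short words in the windows were counted on both strands. GAGAGA was in 173 of 662 windows (26.1%, 22.8 to 29.7%), against 5.44% and 5.89% of windows 500 bp to the left and right. All 6675 final peaks had it in 29.9%, and peaks at 5' ends of the other chromosomes in 26.3%. GCGTCTC was in 77 windows (11.6%, 9.29 to 14.3%), against 1.21% and 0.453% of the flanking windows, 11.3% of all final peaks and 10.7% at 5' ends elsewhere. The words overlap in 20 windows, in which GCGTCTC runs on into TCTCTC, as it does at sti-1.

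The share of windows with each word, counted separately, was larger in the arms than in the centre. For GCGTCTC it was 17.8% (12.8 to 23.7%) in the arms and 8.81% (6.37 to 11.8%) in the centre. For GAGAGA it was 32.7% (26.4 to 39.5%) and 23.1% (19.3 to 27.3%). Where a coding gene was nearest, the shares were 19.0% of 174 arm peaks and 8.55% of 269 centre peaks for GCGTCTC, and 32.2% and 21.9% for GAGAGA. Peaks with GCGTCTC had a median signal of 197 and those without it 174.

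The words had a preferred strand upstream of coding genes. Of 50 upstream peaks with GCGTCTC on 1 strand, 37 (74.0%, 59.7 to 85.4%) had it in that spelling on the strand of the gene, as at sec-61.G, hsp-16.41, nhr-256 and efl-1 in the sequences above. GAGAGA was on the opposite strand, so that the strand of the gene reads TCTCTC, in 66 of the 94 upstream peaks with it on 1 strand only. Beside genes of other classes GCGTCTC was on the strand of the gene in 8 of 21 peaks.

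The third word, GAGCGCG, was chosen after the printed sequences had been read. Those with it, tos-1, sti-1 and efl-1, are strong peaks, so its link to signal below was favoured by that choice. It was in 39 windows (5.89%), against 0.906% and 0.755% of flanking windows and 2.24% of the peaks of the chromosome away from 5' ends. Peaks at 5' ends of the other chromosomes had it in 5.86%. Of the 100 strongest of the 662 it was in 14, tos-1 and sti-1 among them, and the median signal of peaks with it was 259, against 174 without. Any of the 3 words was in 234 windows.

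CACGTG was in 5.59% of windows (3.97 to 7.62%), against 2.27% (1.27 to 3.71%) and 2.42% (1.39 to 3.90%) of the flanks, 4.65% at 5' ends of the other chromosomes and 10.6% of the peaks of the chromosome away from 5' ends. GGTTCGA was in 1.66%, against 1.06% and 0.302%. The remaining words were rarer at the summits than in the flanks. TTCNNGAA was in 3.17%, against 6.50% and 8.31%, TATAAA in 6.50%, against 10.1% and 11.5%, and TTTTCAG, the usual end of a worm intron, in 2.11%, against 11.6% and 11.8%. These words were not compared at matched GC content, which was higher in the windows than in the flanks, and its part in the difference was not tested.

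The limit of 500 bp cut through a continuous range of distances. Just inside it were the peaks at F46F3.9 (497 bp downstream), myo-3, a muscle myosin gene (492 bp upstream; 93.9), and ZC443.4 (487 bp downstream; 92.3). Just outside it were the distances to the 5' ends of ddo-2 (503 bp; 308), srh-17 (504 bp; 209) and anmt-3 (504 bp; 155). The peak near srh-17 is still one of the regions, because its summit was at -141 bp from another coding 5' end.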

How the data were processed

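The ce11 lists that the authors deposited were used: candidates of each replicate, pooled candidates and a final list thresholded by the irreproducible discovery rate (IDR). The deposited file descriptions say that a control entered the calling and that candidates include background. Neither aligner nor peak caller is named, and both count as not given in the sources used here. Controls were not analysed here. The deposited lists give a signal, a −log10 q-value and a summit offset for every peak. The deposited −log10 q-value was 4.38, its ceiling, for all 662 peaks and ranked nothing. On ce10, which was not annotated here, 1385 of 8993 final peaks (15.4%) were on chromosome V, against 1019 of 6675 (15.3%) on ce11. Columns of the authors' lists in other units were used for positions only.

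Summits were set against gene 5' ends of Ensembl release 115 (WBcel235, 46890 genes; positions 1-based), and sequence came from the RefSeq genome of that assembly. A replicate's value is that of its strongest peak that contains the summit. Replicate error is shown by repeating measures on the strongest 6675 peaks of each replicate. With 1 group no test was run. Intervals are exact (Clopper-Pearson) at 95% and treat neighbouring genes as independent. Python 3.11.15, numpy 2.4.6, pandas 2.3.3, scipy 1.17.1 and matplotlib 3.10.9 were used. Named are the 15 strongest peaks, the 5 strongest of each arm, the 3 strongest of each class and list and those nearest the limit of 500 bp; other names were chosen after their values were seen. The members, the 25 gene lists and the words were chosen with earlier results of these data known. Alternatives were each replicate alone, the stronger 3337 peaks, windows of 250 and 1000 bp, coding 5' ends, other arm limits, the nearest 5' end and a 51 bp sequence window.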

Additional observations from a re-analysis of the deposited data

How the results depend on the processing

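Recomputed under the alternatives, 23 of 84 values stayed within 1 SD of the replicates or 1.5 times a count and 61 moved. Only the median distance could take either sign, and it stayed negative. Counts, shares, signals and GC content are never negative, so for them a change of sign was impossible. The SD of only 2 replicates is small, so small shifts count as moves. The order centre above left arm above right arm for genes marked held under 11 of 12 settings, the main one included. The exception was the set of genes with a pooled candidate, where the shares were 46.7% (arms), 44.0% (centre), 48.9% (left) and 42.0% (right), so the order of arms and centre turned. The stronger 3337 peaks gave 372 members, 76.4% of summits at 5' ends, genes marked of 4.76% (arms), 9.25% (centre), 5.93% (left) and 3.52% (right), median signals of 252 (arms) and 307 (centre), a median distance of -158.5 bp and GC of 46.5%. In this list the centre's median signal was above the arms', so that order turned against the full list (185 and 173); the cause was not tested. A window of 250 bp gave 52.7% at 5' ends, genes marked of 5.48%, 11.4%, 7.53% and 3.30% in the same order of regions, and -113.5 bp. A window of 1000 bp gave 75.1%, genes marked of 9.06%, 19.1%, 12.5% and 5.40%, a median signal of 161 in the centre, -159 bp and GC of 44.6%. Coding 5' ends alone gave 48.1%, genes marked of 8.66%, 14.7%, 10.9% and 5.69%, a median signal of 189 in the centre and GC of 44.6%. Arm limits of 5 and 17 Mb gave genes marked of 14.1% (centre), 9.21% (left) and 4.60% (right), and limits of 7 and 15 Mb 8.47% (arms), 15.6%, 11.6% and 5.28%. With each peak given to its nearest 5' end the shares were 5.62%, 10.4%, 8.01% and 3.07%. For coding genes outside the chemoreceptor, F-box and C-type lectin lists they were 11.6%, 17.1%, 14.2% and 7.98%. This setting, that of genes with a candidate, and the separate arms were added after seeing the data. GC within 51 bp was 49.0%.

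With 1 replicate left out, using the strongest 6675 peaks of the other, members numbered 655 to 668, the share at 5' ends was 64.5% to 64.7%, genes marked were 7.05% to 7.38% (arms), 15.2% to 15.5% (centre), 9.67% to 10.2% (left) and 4.26% to 4.38% (right). Median signals were 86.1 to 105 (arms) and 81.6 to 90.6 (centre) on the replicates' own scale, the median distance was -147 bp in both and GC was 44.6% to 45.5%. No paired analysis was possible because there is 1 group. Depth is unknown, so absence of a peak cannot be told from a peak below detection.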
